A study of Bos taurus with 12 samples.

Results

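DGAT1, ABCG2 and GHR, 3 genes of cattle milk genetics, were followed here through 12 RNA libraries of milk fat. Their Ensembl IDs are ENSBTAG00000026356 for DGAT1, ENSBTAG00000017704 for ABCG2 and ENSBTAG00000001335 for GHR. They were taken by Ensembl gene ID under a rule that names no measured values, though with earlier results of these data known. They make up 3 of the 24616 rows of the count table. All 3 passed the filter on low counts that 11323 rows passed. Every one of 6 Holstein cows, all early in lactation, gave 1 control library and 1 library with lysine delivered past the rumen, so there were 6 libraries of each kind. All 12 libraries share the breed, the lactation stage and the tissue source. The label of the lysine group gives a treatment of 63 days, while the titles hold 0 or 63 alone. Whether that code is a time or an amount cannot be told from the labels. Nothing in the labels gives the genotype of a cow at these genes, its age or its parity.

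DGAT1 is the enzyme that joins the last fatty acid to diacylglycerol and so completes triacylglycerol, the main lipid of milk fat droplets. ABCG2 is an efflux transporter in the apical membrane of the secretory cell, where it moves riboflavin, urate and many drugs into milk. GHR is the receptor for growth hormone, which signals through JAK2 and STAT5 and acts on milk yield in large part through other tissues such as the liver. Each gene is known to cattle breeders for an amino acid change linked to milk traits: lysine to alanine in DGAT1, tyrosine to serine in ABCG2 and phenylalanine to tyrosine in the transmembrane part of GHR. The counts used here hold no information on those alleles. Milk fat globules carry cytoplasm of mammary secretory cells, which makes their RNA a view of the gland, but fewer cells and less RNA per cell cannot be told apart in it.

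ABCG2 drew some of the highest counts in milk fat, whereas GHR and DGAT1 drew few. By mean level ABCG2 was in place 31 of 24616 genes, GHR in place 4412 and DGAT1 in place 7425. Levels are given as normalised CPM, meaning CPM (counts divided by library size) where each total is first multiplied by a TMM factor, a scaling that brings most genes to one level across libraries. Counts were not corrected for transcript length, so they order the reads of the genes and not their RNA molecules. ABCG2 had more counts than GHR, and GHR more than DGAT1, in 12 of 12 libraries. Library totals ran from 5446799 to 56550977 counts and TMM factors from 0.444 to 1.41. The lysine library of cow 4319 was the shallowest, at 5446799 counts against 31110805 in its control. The lysine libraries of cows 4381 and 4383 held 4.48 and 3.88 times the total of their controls and had the lowest factors, 0.584 and 0.444. In those 2 libraries normalisation raised every level, and the values without it are given beside the results.

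**Figure D1:**
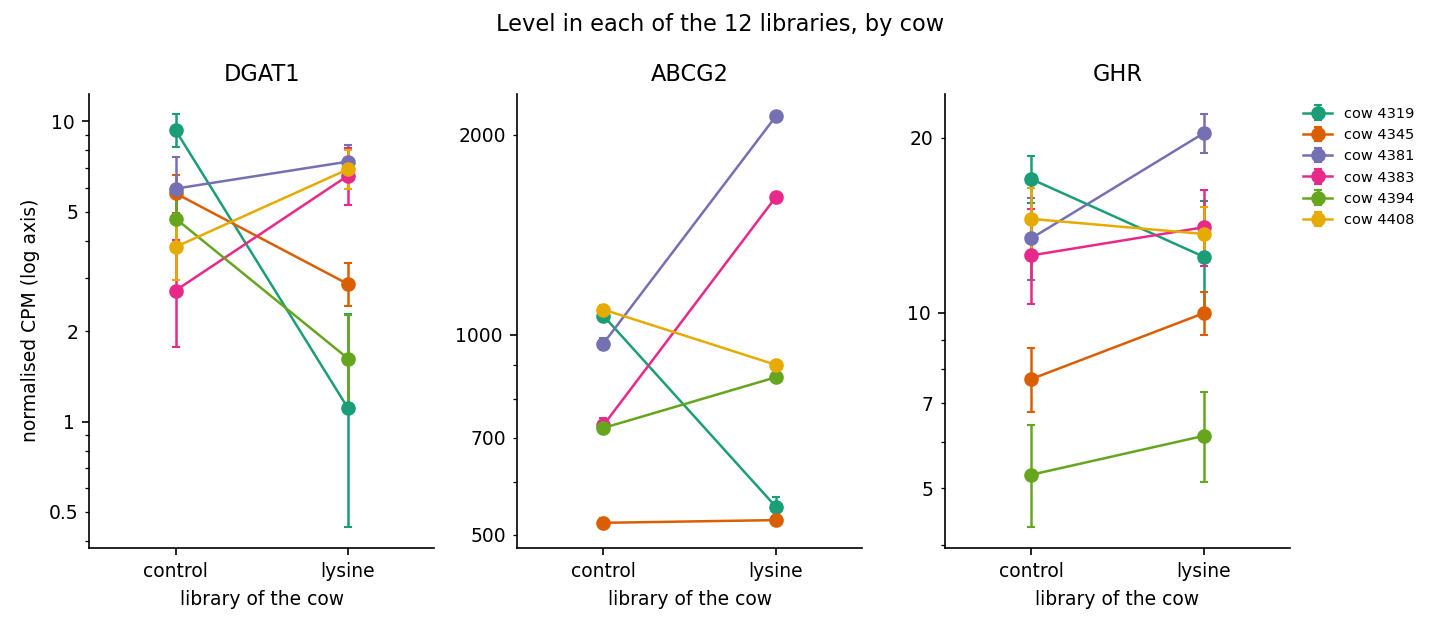
Normalised CPM (vertical log axis) of DGAT1, ABCG2 and GHR in the control and the lysine library of each cow, joined by a line. Bars are exact 95% Poisson intervals of the counts, too narrow to see for most ABCG2 points. DGAT1 lines cross, ABCG2 lines fan out with lysine, and the GHR lines of cows 4394 and 4345 lie below the rest at both ends on this normalised scale.

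DGAT1, the triacylglycerol enzyme, was read from few counts, 7 to 253 per library. In control libraries it measured 9.32 normalised CPM in cow 4319, 5.96 in cow 4381, 5.75 in cow 4345, 4.74 in cow 4394, 3.81 in cow 4408 and 2.73 in cow 4383. In lysine libraries it measured 7.33 in cow 4381, 6.92 in cow 4408, 6.59 in cow 4383, 2.87 in cow 4345, 1.62 in cow 4394 and 1.11 in cow 4319. The groups overlapped, and cow 4319 was the highest control and the lowest lysine library. Its lysine library had only 7 DGAT1 counts, with an exact 95% Poisson interval of 2.81 to 14.4 counts, against 253 in its control. Control libraries averaged 5.39 ± 2.28 and lysine libraries 4.40 ± 2.85 normalised CPM (mean ± SD, n = 6 each). The labels name no molecular identifiers, and without them reads are no independent draws, so these intervals may be too narrow even for counting error. They cover no other source of spread.

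Within cows, the direction of DGAT1 depended on the cow and on the scaling. The normalised ratio of lysine to control was 0.119 in cow 4319, 0.342 in cow 4394, 0.499 in cow 4345, 1.23 in cow 4381, 1.81 in cow 4408 and 2.41 in cow 4383. It was thus above 1 in 3 of 6 cows after normalisation, but in 1 of 6 (cow 4408) as a share of the library total. On that scale cow 4381 had 5.31 unadjusted CPM in control and 4.28 with lysine, and cow 4383 had 3.38 and 2.93. Group values were then 5.84 ± 1.89 in control and 3.62 ± 2.15 unadjusted CPM in lysine libraries (mean ± SD, n = 6 each). For the normalised ratio, the 95% counting interval excluded no difference in 5 of the 6, with 3 cows lower and 2 higher. The normalised within-cow log2 ratios had an SD of 1.65, where counting error alone, with reads taken as independent, would give 0.32. The spread of the DGAT1 difference was in percentile 95.9 of the 7358 tested genes at 5 CPM or more, whose median SD was 0.61 (log2 CPM with a prior count of 2, on which that of DGAT1 was 1.60). DGAT1 itself averaged 4.89 normalised CPM, just below the level of that reference set.

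The fitted lysine difference of DGAT1 was -0.45 ± 0.56 on the log2 scale (SE), with a 95% interval of -1.67 to 0.76, or 0.314-fold to 1.70-fold. It did not pass the threshold (edgeR, quasi-likelihood, blocked on cow, unadjusted p = 0.432, adjusted p = 1). Neither did any other gene: 0 of 11323 were called at an adjusted p under 0.05 (0%), with 286 at an unadjusted p under 0.05, and DESeq2 and limma voom also called 0. The estimate moved with single cows and with the scaling. Scaled by totals alone it was -0.80, or -0.53 relative to the median of all tested genes, against -0.49 in the fit as reported. Leaving out cow 4319 gave -0.02, leaving out cow 4394 gave -0.19 and leaving out cow 4345 gave -0.30. The farthest the other way was -0.81, without cow 4383, followed by -0.74 without cow 4408.

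ABCG2, the efflux transporter, was read from 3483 to 70361 counts per library, so counting error was small beside the differences between libraries. Control libraries measured 1091 normalised CPM in cow 4408, 1068 in cow 4319, 970 in cow 4381, 730 in cow 4383, 724 in cow 4394 and 521 in cow 4345. Lysine libraries measured 2132 in cow 4381, 1611 in cow 4383, 901 in cow 4408, 863 in cow 4394, 551 in cow 4319 and 526 in cow 4345. The lysine libraries of cows 4381 and 4383 stood above all 10 others, and cow 4345 was the lowest in both groups. Group values were 851 ± 227 in control and 1097 ± 641 in lysine libraries (mean ± SD, n = 6 each).

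The 2 high ABCG2 libraries were those with the lowest TMM factors. As a plain share of the library total, cow 4381 had 1244 unadjusted CPM with lysine and 864 in control, and cow 4383 had 715 and 904. On that scale all 12 libraries lay within a 1.95-fold range, against 4.09-fold after normalisation. Group values were then 927 ± 166 in control and 884 ± 228 unadjusted CPM in lysine libraries. ABCG2 was higher with lysine in 4 of 6 cows after normalisation and in 2 of 6 as a share of the total.

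The fitted lysine difference of ABCG2 was 0.22 ± 0.28 (log2, SE), with a 95% interval of -0.39 to 0.83, or 0.762-fold to 1.78-fold (edgeR, unadjusted p = 0.449, adjusted p = 1). Without cow 4383 it was 0.03, without cow 4381 0.04 and without cow 4319 0.45. Scaled by library totals alone it turned to -0.09, and with depth (log2 of the total) as a covariate to -0.02. The first of these shifts the median over all tested genes from 0.04 to -0.26, and relative to the median ABCG2 was at 0.18 and 0.17.

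GHR, the growth hormone receptor, was read from 79 to 672 counts per library. The SD of its within-cow log2 difference was 0.36 after normalisation, against 0.82 for ABCG2 and 1.65 for DGAT1. As shares of the library total the SD was 0.61 for GHR, 0.39 for ABCG2 and 1.25 for DGAT1, so the order of GHR and ABCG2 depended on the scaling. Cow 4394 measured 5.27 normalised CPM in control and 6.15 with lysine, and cow 4345 measured 7.70 and 9.99. The other cows measured more in both libraries: 12.6 and 14.0 in cow 4383, 14.5 and 13.7 in cow 4408, 17.0 and 12.5 in cow 4319, and 13.4 and 20.4 in cow 4381. The 4 libraries of cows 4394 and 4345 thus lay below the 8 others without overlap, a split seen only after the values were known. It did not hold as shares of the library total, where cow 4345 had 9.93 and 14.0 unadjusted CPM, cow 4381 had 11.97 and 11.88, and the lysine library of cow 4383 had 6.23. Group values were 11.7 ± 4.40 in control and 12.8 ± 4.73 normalised CPM in lysine libraries (mean ± SD, n = 6 each).

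The lysine difference of GHR was 0.14 ± 0.23 (log2, SE), with a 95% interval of -0.35 to 0.63, or 0.784-fold to 1.55-fold (edgeR, unadjusted p = 0.545, adjusted p = 1). GHR was higher with lysine in 4 of 6 cows. The lowest within-cow ratio was 0.735 (cow 4319) and the highest 1.52 (cow 4381). The 95% counting interval excluded no difference in 3 cows, 2 higher and 1 lower. Without cow 4381 the estimate was 0.05, and without cow 4319 0.26. Scaled by totals alone it turned to -0.16 and GHR was higher with lysine in 1 of 6 cows. Cow 4383 then stood at 15.5 unadjusted CPM in control and 6.23 with lysine. Relative to the median of all tested genes the estimate was 0.10 under both scalings.

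**Figure D2:**
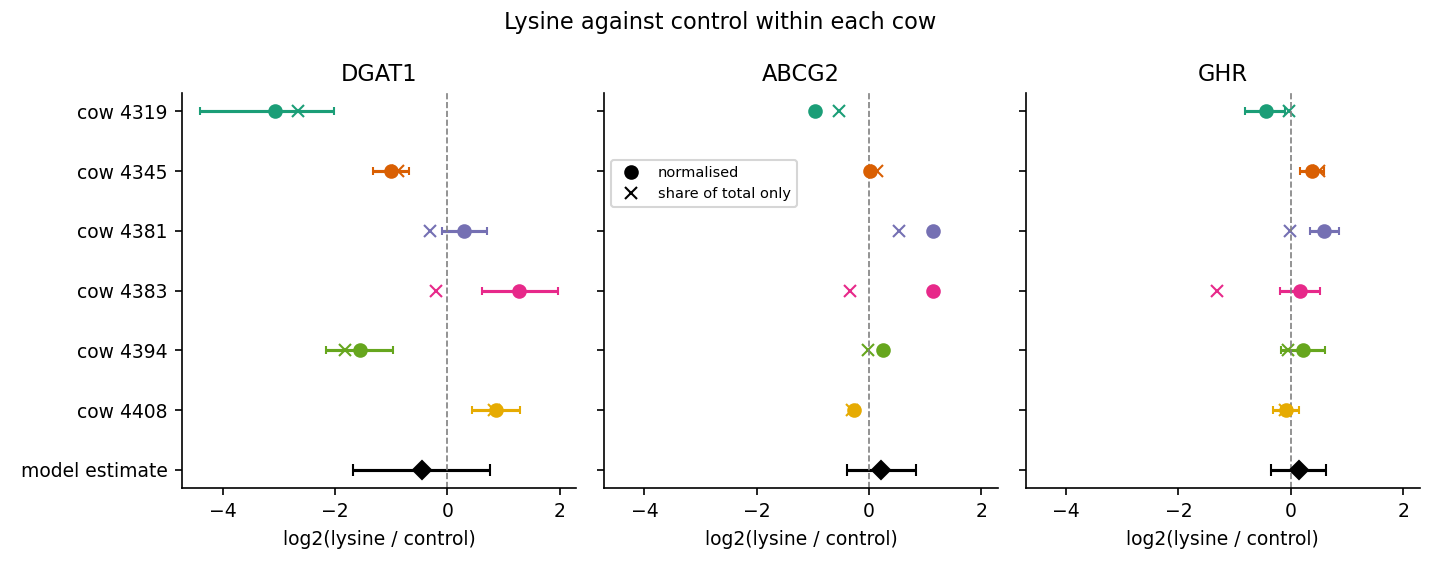
Lysine over control (horizontal axis, log2) in each cow for the 3 genes. Circles are normalised values with 95% counting intervals, crosses are shares of the library total with no further scaling, and diamonds are the edgeR estimates with their 95% intervals, which include 0 for all 3 genes. Circles and crosses part most in cow 4383.

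The precision behind these estimates differed between the genes. The half-width of the 95% interval was 0.49 for GHR, 0.61 for ABCG2 and 1.22 for DGAT1, against a median of 0.58 over the 7358 tested genes at 5 CPM or more. In this fit the GHR and ABCG2 intervals do not reach a 2-fold difference in either direction, and the DGAT1 interval reaches a 3-fold lower level. The fitted size of the DGAT1 difference was in percentile 88.8 of those genes, that of ABCG2 in percentile 57.8 and that of GHR in percentile 39.7.

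**Figure D3:**
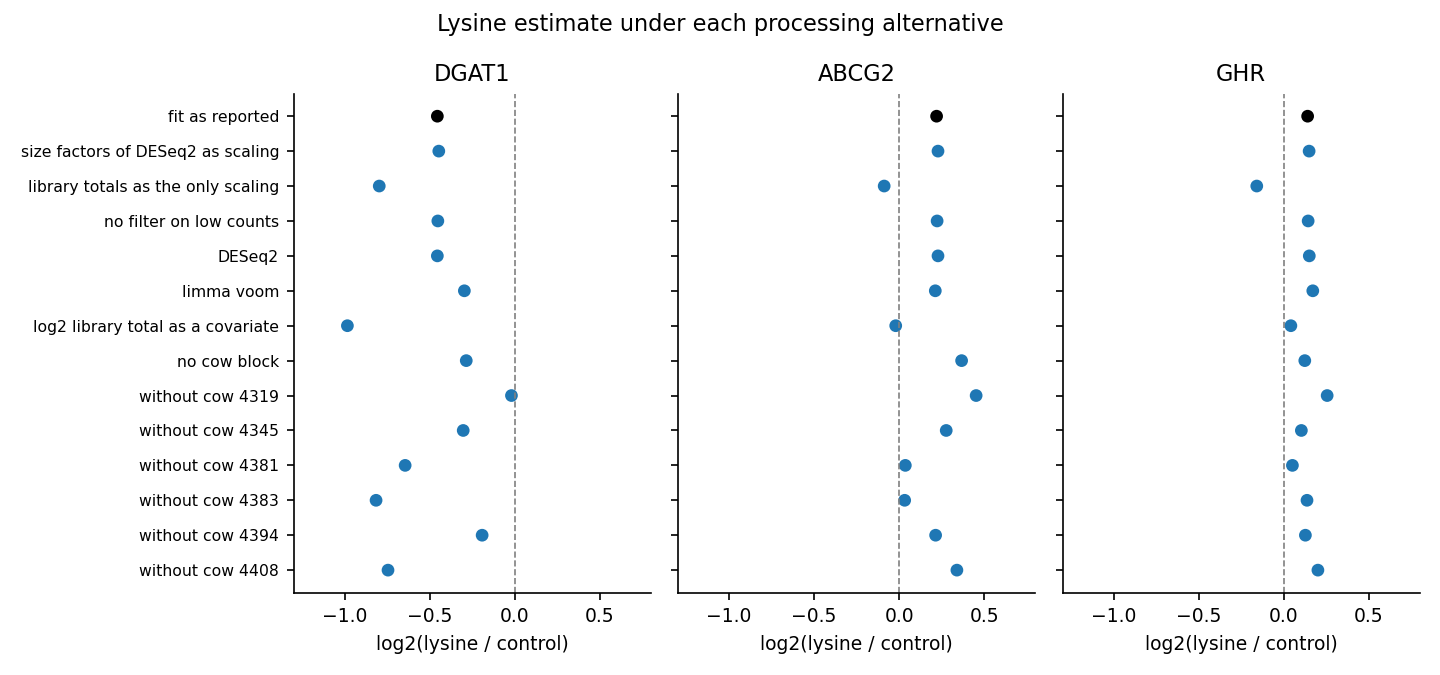
Estimated log2(lysine / control) of each gene (horizontal axis) in the fit as reported (black) and under 13 alternatives (blue), 1 per line. DGAT1 stays below 0 throughout and runs from -0.98 to -0.02, ABCG2 crosses 0 under 2 alternatives, and GHR crosses 0 when scaled by totals alone.

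On the normalised scale the 3 genes differed in how much of their spread lay between cows, given here as a description. Cow accounted for 89.7% of the variance of log2 GHR over the 12 libraries, 57.8% for ABCG2 and 21.0% for DGAT1, where the median of the genes at 5 CPM or more was 57%. These shares were in percentiles 97.0, 51.1 and 5.6 of those genes. They are shares of sums of squares, in which 6 cow means take a large part even with no difference between cows. They are thus to be read beside that median and not as a cow effect. Treatment took 1.51% for GHR, 3.33% for ABCG2 and 8.62% for DGAT1 (median 3.41%). The SD of the 6 cow means of log2 CPM was 0.58 for GHR, 0.50 for ABCG2 and 0.44 for DGAT1, against a median of 0.38. With totals as the only scaling these SDs were 0.38, 0.25 and 0.36. The SDs of the within-cow log2 differences were then 0.61, 0.39 and 1.25, against 0.36, 0.82 and 1.65 after normalisation. Shares of variance were not computed on that scale. For GHR the cow means spread less there (0.38 against 0.58) and the within-cow differences more (0.61 against 0.36). Its share for cow is therefore lower there, by an amount not computed.

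None of the 3 genes passed the test of differences between cows (edgeR quasi-likelihood F test), which called 161 of 11323 genes, or 1.42%. The unadjusted and adjusted p were 0.0210 and 0.215 for GHR, 0.109 and 0.448 for ABCG2, and 0.841 and 0.963 for DGAT1. DESeq2 passed GHR (adjusted p = 0.0363), in a test that called 13.4% of all genes, and passed neither ABCG2 (adjusted p = 0.139) nor DGAT1 (adjusted p = 0.983). Without cow 4394 the edgeR F test of GHR gave an unadjusted p of 0.120 and an adjusted p of 0.443. Without cow 4345 its unadjusted p was 0.0266, near that of the full fit. The adjusted p was then 0.610, in a test that called only 9 genes. Scaled by totals alone, the edgeR F test of GHR gave an unadjusted p of 0.690 and an adjusted p of 0.875. The SD of the cow means was then 0.38 for GHR and 0.25 for ABCG2.

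Ratios of 2 of these genes within a library need no scaling. There were 44.1 to 140 ABCG2 counts for each GHR count, a 3.18-fold range, with the 2 libraries of cow 4394 the highest at 137 and 140. GHR counts per DGAT1 count were lowest in the control of cow 4394 (1.11) and highest in the lysine library of cow 4319 (11.3), a 10.2-fold range. That highest value rests on 7 DGAT1 counts, and the next highest was 4.6, in the control of cow 4383. ABCG2 counts per DGAT1 count ran from 90.6 to 532, a 5.88-fold range. The mean within-cow log2 difference with lysine was 0.08 ± 0.57 for ABCG2 over GHR (SD, n = 6, exact sign-flip permutation p = 0.750, higher in 3 of 6 cows). It was 0.67 ± 1.51 for GHR over DGAT1 (SD, n = 6, exact sign-flip permutation p = 0.313, higher in 4 of 6 cows). For ABCG2 over DGAT1 it was 0.75 ± 1.22 (SD, n = 6, exact sign-flip permutation p = 0.250, higher in 4 of 6 cows). Adjusted over these 3 two-sided tests the p values were 0.750, 0.469 and 0.469, and 6 cows cannot give a p below 0.0313.

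Whether the genes vary together was examined over the 6 cows, in 6 relations, and none passed after adjustment. For cow means Pearson's r was 0.65 between DGAT1 and ABCG2 (exact permutation p = 0.169, Spearman's rho 0.71, exact permutation p = 0.136). It was 0.71 between DGAT1 and GHR (exact permutation p = 0.131, rho 0.66, exact permutation p = 0.175). For ABCG2 and GHR it was 0.60 (exact permutation p = 0.228, rho 0.49, exact permutation p = 0.356). For the lysine differences the largest of the 3 was that of ABCG2 and GHR, with r = 0.80 (exact permutation p = 0.0556, rho 0.60, exact permutation p = 0.242). DGAT1 and ABCG2 gave r = 0.71 (exact permutation p = 0.121, rho 0.60, exact permutation p = 0.242). DGAT1 and GHR gave r = 0.46 (exact permutation p = 0.365, rho 0.14, exact permutation p = 0.803). The lowest adjusted p was 0.254 for r and 0.363 for rho. Both values of a pair come from the same libraries and share their scaling factors.

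These relations rested on few cows. Without the 2 cows farthest from the median of the first gene, r over cow means was 0.40, -0.02 and 0.43 in the order above. For the lysine differences it was 0.86 for ABCG2 and GHR, 0.04 for DGAT1 and ABCG2, and -0.23 for DGAT1 and GHR. Scaled by totals alone, r over cow means was 0.21, 0.40 and -0.14 in the same order. For the lysine differences it was then 0.40 for ABCG2 and GHR, 0.23 for DGAT1 and ABCG2, and -0.25 for DGAT1 and GHR.

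The lysine differences were also set beside library depth. Over the 6 cows, the log2 ratio of the totals (lysine over control) gave r = 0.93 with the normalised difference of ABCG2 (exact permutation p = 0.0139, rho 0.77, exact permutation p = 0.103). For DGAT1 r was 0.85 (exact permutation p = 0.0264, rho 0.71, exact permutation p = 0.136) and for GHR 0.84 (exact permutation p = 0.05, rho 0.71, exact permutation p = 0.136). Without cows 4319 and 4381, whose totals differed most, r was 0.91 for ABCG2, 0.68 for DGAT1 and 0.00 for GHR. As shares of the total, r was 0.63 for ABCG2 (exact permutation p = 0.168), 0.71 for DGAT1 (exact permutation p = 0.0958) and -0.35 for GHR (exact permutation p = 0.417). Without cows 4319 and 4381, r on that scale was -0.60 for ABCG2, 0.22 for DGAT1 and -0.90 for GHR. None of these 6 relations, which were chosen after the data were seen, passed adjustment (lowest adjusted p 0.0792 for r and 0.272 for rho). Each gene's difference is itself scaled by the library totals, so both sides share a term. The permutation p values take no account of it. The part of depth in the lysine differences was not tested beyond the covariate fit, where the estimates were -0.98 for DGAT1 (edgeR, unadjusted p = 0.0548, adjusted p = 0.996), -0.02 for ABCG2 and 0.04 for GHR.

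**Figure D4:**
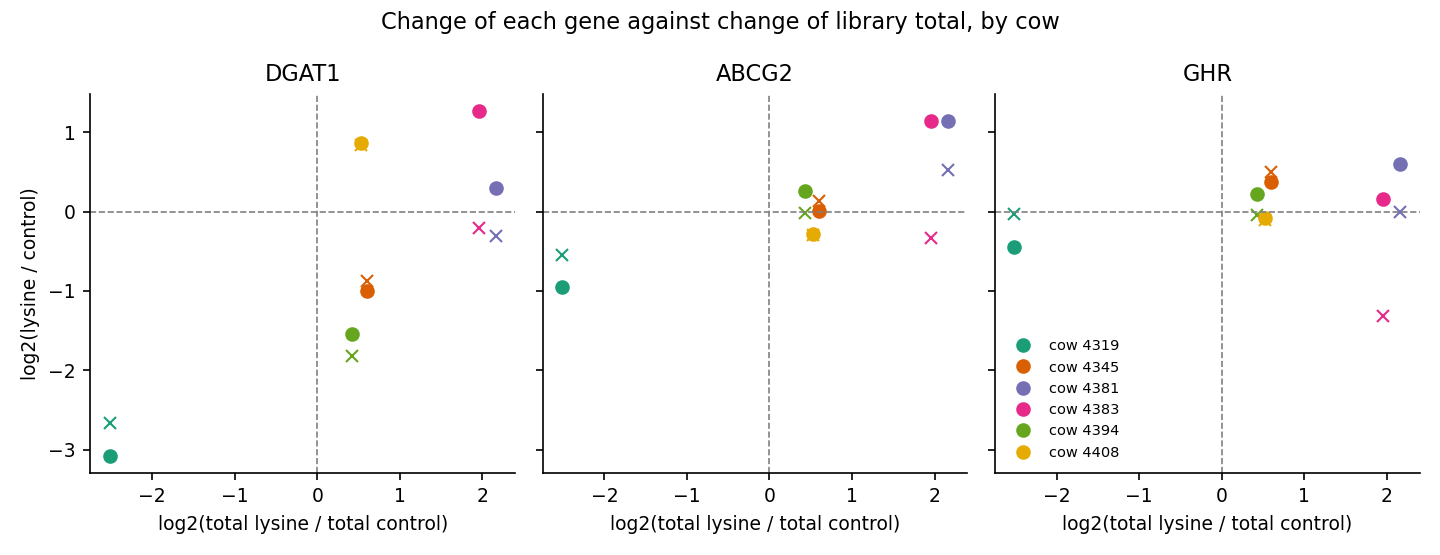
Lysine over control for each gene (vertical axis, log2) against lysine over control for the library total (horizontal axis, log2), 1 colour per cow. Circles are normalised values and crosses shares of the total. Cow 4319, with the only smaller lysine total, has the lowest circle in every panel.

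The sample descriptions carry a code B, which is 1 or 2 and the same for both libraries of a cow. They also carry a code P of 1 to 4 that is not, and the labels explain neither. Cow means of the 3 cows coded B 1 and the 3 coded B 2 were 4.35 ± 1.05 and 5.44 ± 1.17 normalised CPM for DGAT1, 924 ± 213 and 1023 ± 514 for ABCG2, and 11.2 ± 4.85 and 13.3 ± 4.09 for GHR (mean ± SD, n = 3 each, not tested). The lysine difference of code 2 minus that of code 1 was 1.16 for DGAT1 (95% interval -1.26 to 3.58), 0.13 for ABCG2 (-1.13 to 1.40) and 0.32 for GHR (-0.66 to 1.30). The adjusted p was 0.818, 0.974 and 0.882 (edgeR interaction test, which called 0 of 11323 genes, 0%, with 784 at an unadjusted p under 0.05; DESeq2 called 43). The DGAT1 value was 0.21 without cow 4319 and 2.30 without cow 4383.

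In cows 4394 and 4408 the lysine library had the higher P code, and in the other 4 cows the lower. The lysine difference of the former 2 minus that of the latter 4 was 0.20 for DGAT1 (95% interval -2.43 to 2.83), -0.36 for ABCG2 (-1.68 to 0.97) and -0.11 for GHR (-1.20 to 0.97). The adjusted p was 0.990, 0.940 and 0.982 (edgeR interaction test, which called 0 of 11323 genes, 0%, with 796 at an unadjusted p under 0.05; DESeq2 called 114). With 2 cows on one side the intervals are wide. The DGAT1 value was -0.49 without cow 4319 and 1.35 without cow 4394, and without cow 4408 it was -1.06.

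Other genes with a like pattern over the 12 libraries are known here by ID only, and were ranked by Pearson's r of log2 CPM among the tested genes that averaged 5 CPM or more. For DGAT1 they were ENSBTAG00000021932 (r = 0.93, 15.4 normalised CPM) and ENSBTAG00000002191 (r = 0.90, 15.9). For ABCG2 they were ENSBTAG00000031497 (r = 0.96, 256) and ENSBTAG00000021019 (r = 0.93, 36.6). For GHR they were ENSBTAG00000008844 (r = 0.92, 13.8) and ENSBTAG00000011946 (r = 0.91, 17.9). They are the highest of 7357 or 7358 correlations per gene over 12 libraries from 6 cows that share depth and scaling, and are a description only. Over the 6 lysine differences, r with GHR was 0.99 for ENSBTAG00000011946 and 0.50 for ENSBTAG00000008844. The genes named for DGAT1 and ABCG2 had 0.90 to 0.96 with them. These differences come from the same libraries that picked the genes, so their r is no separate evidence.

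Some reads may not belong to the gene they were counted for. In the RefSeq annotation of the ARS-UCD2.0 assembly DGAT1 overlaps HSF1, the heat shock transcription factor gene, GHR overlaps 1 long noncoding RNA, and 5 entries lie within or across ABCG2, 1 of them protein-coding. The strand setting of the counting is not given in the sources used here, so reads of such overlaps cannot be told apart.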

How the data were processed

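The deposited table holds raw whole-number counts per gene, 1 column per library, per the file headers. For the aligner, counting tool, strand setting, genome build and annotation, the status is: not given in the sources used here. Each of the 12 columns matched 1 sample's description. Milk was spun, the fat taken off and its RNA extracted with Trizol, per the labels' protocols. The symbols of DGAT1, ABCG2 and GHR were known beforehand with their IDs. None of the 24616 IDs could be paired with the 37063 RefSeq genes used for names (0 matched), so lists of triacylglycerol, transporter and growth hormone signalling genes and cell type markers were not tested, nor was the tissue checked by markers. No sequence is shown. The genes and lists were chosen with earlier results of these data known.

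Genes were kept by filterByExpr (minimum count 10), scaled by TMM and fitted over all 11323 kept genes with edgeR 4.0.16 (R 4.3.3, robust quasi-likelihood, cow and treatment, two-sided, Benjamini-Hochberg, threshold 0.05). The SE is the log2 difference over the square root of F. Cow was the block, since the labels give both libraries the same cow number. Deviations from group means correlated at -0.02 to 0.66 within cows (median 0.19) and at a median of -0.03 between cows. Log2 CPM used a prior count of 2, and percentiles refer to tested genes at 5 CPM or more. The named genes are the 3 members and, for each, the 2 most correlated genes. Alternatives used DESeq2 1.42.0, limma 3.58.1, other scalings, no filter, a depth covariate, no cow block, and each cow left out. The fit was checked on simulated data. The labels do not say whether libraries of a cow differ in more than treatment and the codes.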

Additional observations from a re-analysis of the deposited data

How the results depend on the processing

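The 3 lysine estimates stayed short of the threshold in 13 of 13 alternatives each, with adjusted p of 0.917 to 1. With no replicate block they were -0.28 (DGAT1), 0.37 (ABCG2) and 0.12 (GHR), and the block changed no call. Library totals as the only scaling turned ABCG2 to -0.088, GHR to -0.16, the P code difference of GHR to 0.13, and r to -0.25 (DGAT1 and GHR, lysine differences) and -0.14 (ABCG2 and GHR, cow means). It also moved the SD of cow means to 0.25 for ABCG2 and 0.38 for GHR. The log2 total as a covariate turned ABCG2 to -0.020. Without the 2 outermost cows, r of DGAT1 and GHR was -0.019 (cow means) and -0.23 (lysine differences). DESeq2 brought the cow test of GHR to an adjusted p of 0.0363. With a cow left out, the lysine estimates ran from -0.81 to -0.02 for DGAT1, 0.03 to 0.45 for ABCG2 and 0.05 to 0.26 for GHR; the B code difference of ABCG2 ran from -0.41 to 0.64, and the P code differences from -1.06 to 1.35 for DGAT1 and -0.32 to 0.029 for GHR. The cause was not tested. Over all genes, the cow test called 161, 396 with totals only, 829 without a filter, 1518 with DESeq2, 568 with limma voom, 18 with the depth covariate, and 9, 72, 92 and 429 without cows 4345, 4381, 4319 and 4408. Without a filter the lysine, B and P tests called 1, 30 and 48 genes. With cow 4394 left out the P test called 87 and with cow 4408 left out 847, each with 1 cow on one side, assumed to vary like the others. Depth limits DGAT1 most, with 7 counts in 1 library.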
